A study of Eutrema salsugineum with 41 samples.

Results

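Isolated H3K9me2 islands are single 1 kb windows of the Eutrema salsugineum genome that carried histone H3 lysine 9 dimethylation (H3K9me2) in wild type, with no other enriched window nearby. Sequencing reads from H3K9me2 chromatin immunoprecipitation (ChIP-seq) were counted by midpoint in windows of 1000 bp on the 24 scaffolds of 1 Mb or more. A window was called enriched with at least 10 wild-type reads and at least 4 times the reads of the input chromatin, both scaled to library size. An enriched window was an island, chosen by these wild-type and input reads, when it held more than 50 wild-type reads and no other enriched window lay within 10 kb on either side. Of 236189 windows, 20685 were enriched in wild type and 496 were islands. The islands thus made up 0.210% of all windows, 2.40% of the enriched windows and 4.46% of the enriched windows with more than 50 wild-type reads. A further 767 isolated enriched windows held 50 or fewer wild-type reads and were left out by the rule. The 10635 enriched windows with more than 50 reads that had an enriched neighbour within 10 kb are called clustered windows and served for comparison.

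H3K9me2 is a mark of silent chromatin that in plants lies mostly over transposons and other repeats, in large pericentromeric blocks and in short stretches along the chromosome arms. In Arabidopsis thaliana the DNA methyltransferase CMT3 binds nucleosomes with this mark and methylates cytosines in the CHG context, and the histone methyltransferase KYP/SUVH4 binds methylated DNA and deposits H3K9me2, so that each mark recruits the enzyme of the other. E. salsugineum has lost CMT3. Whether the islands overlay genes or repeats was not analysed here, and no island sequence was read.

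The study expressed the genomic A. thaliana CMT3 sequence, under its native promoter, in the Shandong ecotype of E. salsugineum after transformation by floral dip. H3K9me2 was profiled in cauline leaves of individual plants, a wild-type plant and the plants AtCMT3-L1T3, AtCMT3-L2T3, AtCMT3-L1T5 and AtCMT3-L2T5, which belong to transformed lineages 1 and 2 (L) in transgenic generations 3 and 5 (T). Wild-type input chromatin was the only input library used for all 5 plants. The AtCMT3 transcript was at 0.225 TPM (transcripts per 1000000) in wild type, 77.2 TPM in AtCMT3-L1T3, 159 TPM in AtCMT3-L2T3, 97.8 TPM in AtCMT3-L1T5 and 62.7 TPM in AtCMT3-L2T5. Each lineage descends from its own transformation, and each plant gave 1 ChIP library, so differences among the plants are without replicates. All intervals printed below are 95% intervals that cover counting error only.

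Where values of the AtCMT3 plants are given without names, their order is that in which the plants were named above. The libraries held between 4494275 reads (wild type) and 18722786 reads (AtCMT3-L2T5). Levels below are read densities per kb for each 1000000 library reads, and on that scale the mean window lay between 3.99 and 4.06 in the 6 libraries. The windows enriched in wild type took 28.0% of the wild-type reads and 27.6% of the AtCMT3-L2T3 reads. They took 20.4% to 21.7% of the reads in the other AtCMT3 plants and 4.05% in input. The read names showed 4 sequencing runs. AtCMT3-L2T3 had a run of its own, AtCMT3-L1T3 was split between the run of wild type and another, and AtCMT3-L1T5, AtCMT3-L2T5 and the input shared a run. Generation and run therefore cannot be told apart between the T5 plants and the others.

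The islands were spread over the whole assembly. Each of the 24 scaffolds carried at least 1 island, at 2.10 islands per Mb over 236.189 Mb. Scaffolds 1 and 7 carried the most, 40 islands each. Density ran from 0.482 islands per Mb on scaffold 21, which had the highest share of enriched windows (17.5%), to 3.98 per Mb on scaffold 23, and scaffold 15 followed with 3.85 per Mb. Scaffold 22, with only 0.534% of its windows enriched, still carried 2 islands. Across the 24 scaffolds the density of islands and the share of enriched windows had a Spearman correlation of 0.29 and a Pearson correlation of 0.28, as a description of scaffolds of unequal length.

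**Figure D1:**
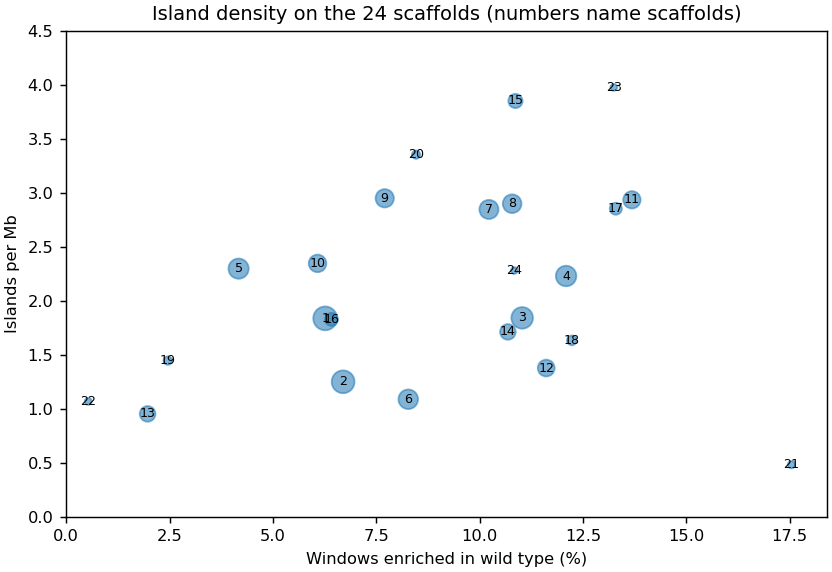
Islands per Mb (vertical axis) against the percentage of windows enriched in wild type (horizontal axis) on the 24 scaffolds, with circle area proportional to scaffold length. Most scaffolds lie between 1 and 3 islands per Mb, and scaffold 21 combines the highest enriched share, 17.5%, with the lowest density, 0.482 per Mb.

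Most islands were not far from other marked chromatin. The nearest other enriched window lay at a median of 19 kb, just outside the 10 kb that the rule set, with a range of 11 to 407 kb. It lay within 20 kb for 282 islands, while 57 islands had none within 50 kb and 19 had none within 100 kb. The nearest other island lay at a median of 152 kb, and 94 islands had another within 50 kb. Long blocks were further off. The assembly held 111 runs of 10 or more consecutive enriched windows, and 43 islands lay within 100 kb of such a run, the median distance being 594 kb for the 469 islands with a run on their scaffold. The median distance to the nearer scaffold end was 3050 kb for islands and 2997 kb for all windows, and 1 island lay within 10 kb of an end.

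On a broader scale the islands occupied intermediate territory. Between 10 and 500 kb on both sides, a median of 9.99% of windows were enriched around islands, compared with 11.1% around clustered windows and 9.18% around all windows. Islands were densest where 5% to 10% of the surroundings were enriched, at 2.67 per Mb, and where 10% to 20% were enriched, at 2.47 per Mb. These classes held 181 and 240 islands. In surroundings with under 2% enriched windows the density was 0.767 per Mb, and where at least 20% were enriched it was 1.26 per Mb. The isolation rule itself removes windows from the most densely marked surroundings. Only 8 islands, 1.61%, remained in the class of at least 20%, which held 6.38% of the clustered windows.

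Isolation also depended on the 4-fold threshold. With a threshold of 2-fold in place of 4-fold, 21.1% of all windows and 13.6% of the windows not enriched in wild type passed. The second share is the background for the flanks, since the rule left no enriched window there. In wild type, 352 of the 496 islands (71.0%) had an adjacent window at 2-fold or more over input, and 133 (26.8%) had such a window on both sides. Of the 992 adjacent windows, 485 (48.9%) were at 2-fold or more. Of the other 8783 windows within 10 kb, 1418 (16.1%) were, near the background. The median number of such windows within 10 kb was 3, and 48 islands (9.68%) had none. The share above the background was thus found mainly in the adjacent kilobase. Read placement did not separate them by strand, as 50.0% to 50.3% of the island reads of each library lay on the plus strand.

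The mean profile across 495 islands that lay at least 10 kb from a scaffold end shows shoulders next to the island. In wild type the level was 15.4 in the island, 8.06 in the adjoining kilobase, 4.93 at 2 to 4 kb and 3.26 at 5 to 10 kb. The input ran the other way, at 2.81 in the island and 4.46 in the adjoining kilobase, which the rule favours because it divides by input. All 4 AtCMT3 plants had a summit at the same place, within 100 bp of the window centre. Their island levels were lower and their outer flanks higher than in wild type. At 5 to 10 kb the level was 3.80 in AtCMT3-L1T3, 3.38 in AtCMT3-L2T3, 3.64 in AtCMT3-L1T5 and 3.78 in AtCMT3-L2T5. Measured midway between flank and summit, the mean profile was 1300 bp wide in wild type, 1600 bp in AtCMT3-L1T5 and AtCMT3-L2T3, 1800 bp in AtCMT3-L2T5 and 1900 bp in AtCMT3-L1T3. The wild-type summit and flanks are values that the rule used, so these widths are a description.

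**Figure D2:**
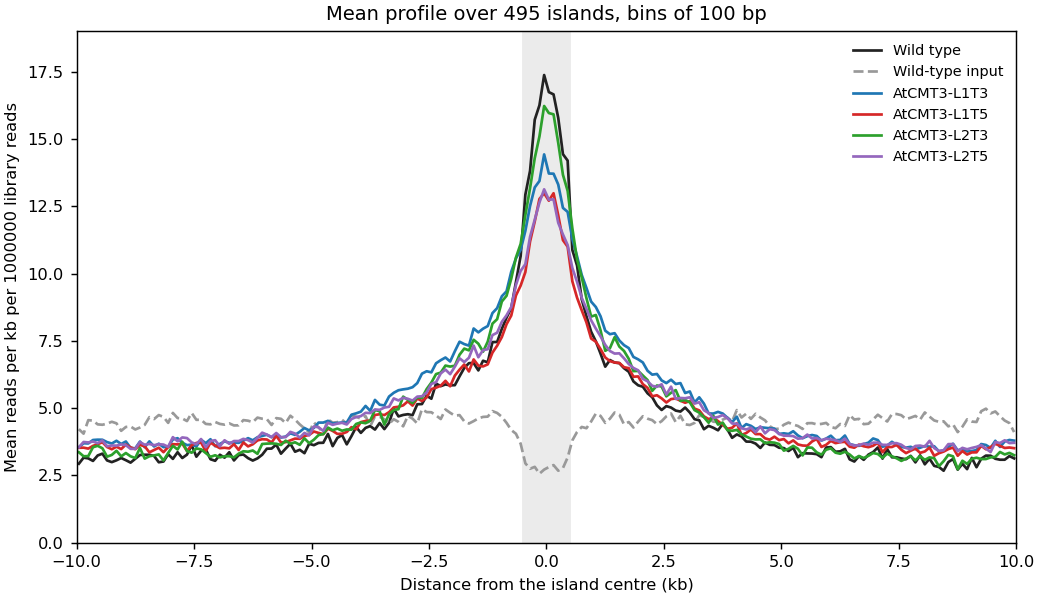
Mean level in reads per kb per 1000000 library reads (vertical axis) by distance from the island centre in kb (horizontal axis), in bins of 100 bp over 495 islands, with 1 line per library and the island shaded. Wild type has the highest summit and the lowest outer flanks of the H3K9me2 libraries, and the input dips inside the island.

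Because the wild-type reads chose the islands, a window with a high wild-type count by chance of sampling is more likely to be included, and a neighbour with a low count is more likely to count as unmarked. The wild-type reads were therefore split at random into 2 parts of about equal size. Both parts come from 1 plant and 1 library, so the split removes only the effect of read sampling. Islands were chosen in the first part by the same rule with the read minima scaled down, and the wild-type level was read from the other part. This gave 517 islands, of which 323 are among the 496. The wild-type level at these islands was 15.6 in the part that chose them and 13.8 in the other part. Relative to that other part, the adjoining kilobase was 1.09 times the wild-type level in AtCMT3-L1T3, 1.07 times in AtCMT3-L2T3, 0.943 times in AtCMT3-L1T5 and 1.00 times in AtCMT3-L2T5. At 5 to 10 kb the corresponding ratios were 1.16, 1.04, 1.11 and 1.16. The mean profile was 1200 bp wide in the part that chose these islands and 1400 bp in the other part, compared with 1600 bp in AtCMT3-L2T3, 1700 bp in AtCMT3-L1T5, 1900 bp in AtCMT3-L2T5 and 2000 bp in AtCMT3-L1T3. The higher outer flanks of the AtCMT3 plants were thus also present when the wild-type reads that were measured had not chosen the islands. Windows enriched in wild type took 20.4% to 27.6% of the reads in these plants and 28.0% in wild type. Reads elsewhere were therefore a larger share in each AtCMT3 plant, and whether the island flanks rose beyond that was not tested.

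Single islands varied in shape far more than the mean profile. With the 4 AtCMT3 libraries weighted equally, the width between flank and summit had a median of 1400 bp and ran from 200 to 7100 bp. It was 1000 bp or less at 182 islands, between 1000 and 2000 bp at 156 and over 2000 bp at 157. At 178 islands the summit lay in the outer 200 bp on either side of the window, next to its edge. In summed AtCMT3 reads the plus strand took between 34.1% and 64.5% of the reads of an island.

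Island levels in wild type and input are a description, since both chose the members. The wild-type level had a mean of 15.4 (15.2 to 15.6), a median of 14.2 and a range of 11.3 to 45.6, which corresponds to 51 to 205 reads. Clustered windows had a mean wild-type level of 19.3. The median wild-type fold over input was 5.13 at the islands and 6.91 at the clustered windows. Many islands sat close to the read threshold. The 24 islands with 51 wild-type reads had a mean level of 11.3 in wild type, 10.9 in AtCMT3-L1T3, 11.6 in AtCMT3-L2T3, 10.1 in AtCMT3-L1T5 and 10.4 in AtCMT3-L2T5. The 24 isolated enriched windows with 50 reads, just below the threshold, had levels of 11.1, 10.8, 11.5, 9.47 and 9.73 in the same order.

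H3K9me2 was retained at the islands in all 4 AtCMT3 plants. Their mean levels were 13.1 in AtCMT3-L1T3, 14.5 in AtCMT3-L2T3, 11.9 in AtCMT3-L1T5 and 11.9 in AtCMT3-L2T5. Each is about 3 times the mean window or more, while input was at 2.81. Within a library, the island level was 0.797 times that of the clustered windows in wild type and 0.773 times in AtCMT3-L2T3. In the other plants islands and clustered windows were closer together, at 0.892 times in AtCMT3-L1T5, 0.924 times in AtCMT3-L2T5 and 0.952 times in AtCMT3-L1T3.

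**Figure D3:**
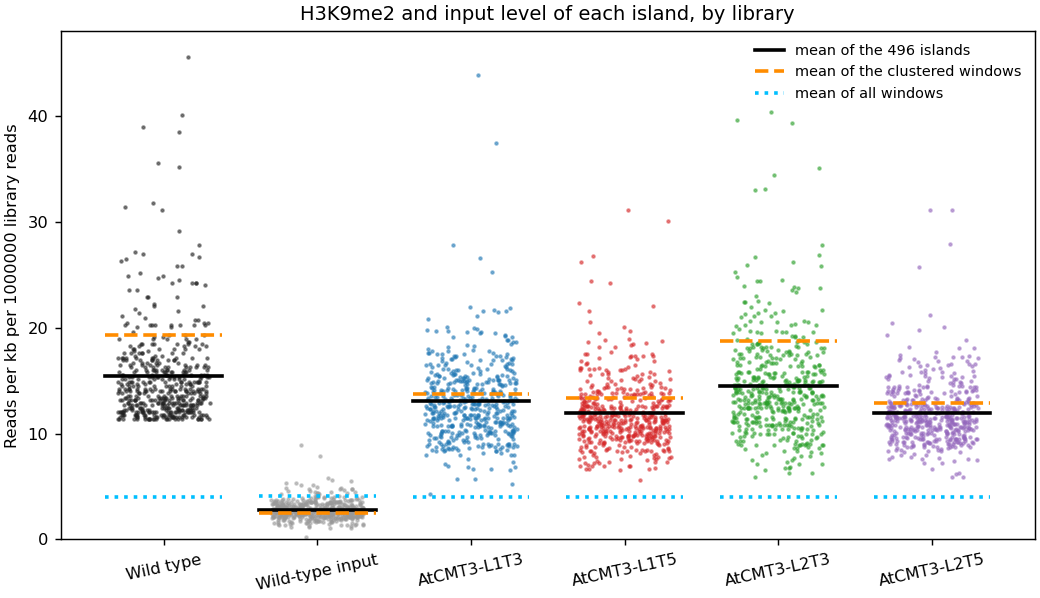
Level of each of the 496 islands in reads per kb per 1000000 library reads (vertical axis) in the 6 libraries (horizontal axis), with lines for the means of islands, clustered windows and all windows. The islands lie above the mean of all windows in each H3K9me2 library, down to 4.29 in AtCMT3-L1T3, and mostly below it in input, and the gap between islands and clustered windows is widest in wild type and AtCMT3-L2T3.

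Relative to wild type, island reads summed over all 496 islands were 0.847 times as high in AtCMT3-L1T3 (0.837 to 0.858), 0.938 times in AtCMT3-L2T3 (0.926 to 0.951), 0.773 times in AtCMT3-L1T5 (0.763 to 0.783) and 0.774 times in AtCMT3-L2T5 (0.765 to 0.784). The wild-type level was the higher at 361, 305, 463 and 450 of the islands, respectively (72.8%, 61.5%, 93.3% and 90.7%). Among clustered windows the shares were 83.6%, 57.7%, 94.1% and 93.3%. The 4 ratios to wild type share the wild-type library and the choice of islands made in it. In the islands chosen in the first part of the wild-type reads and measured in the other, the ratios were 0.903 (0.888 to 0.919), 0.998 (0.980 to 1.02), 0.825 (0.811 to 0.840) and 0.837 (0.823 to 0.851). The level in AtCMT3-L2T3 was then indistinguishable from wild type within counting error, and the other 3 plants remained below it. Both parts share 1 wild-type library, so differences between libraries or between wild-type plants are not covered. The plants with the lower island ratios are also those in which a smaller share of all reads fell in windows enriched in wild type, and the part of that difference in the ratios was not tested.

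Single islands spread more widely than counting allows. The standard deviation of the log2 ratio to wild type over islands was 0.39 in AtCMT3-L1T3, 0.35 in AtCMT3-L2T3, 0.27 in AtCMT3-L1T5 and 0.30 in AtCMT3-L2T5, where counting error alone gives 0.21, 0.23, 0.22 and 0.20. Few islands differed by 2-fold or more. The level was that much lower at 17 islands in AtCMT3-L1T3, 3 in AtCMT3-L2T3, 9 in AtCMT3-L1T5 and 19 in AtCMT3-L2T5. The background shares among all windows enriched in wild type were 8.02%, 0.856%, 5.42% and 8.17%, compared with 3.43%, 0.605%, 1.81% and 3.83% of the islands. The level was at least 2-fold higher than wild type at 2 islands in AtCMT3-L2T3 and at 0 in each other plant. The background shares for that direction were 0.0532%, 0.348%, 0.0532% and 0.0193%. These counts were near the background, so they are not a result about islands.

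**Figure D4:**
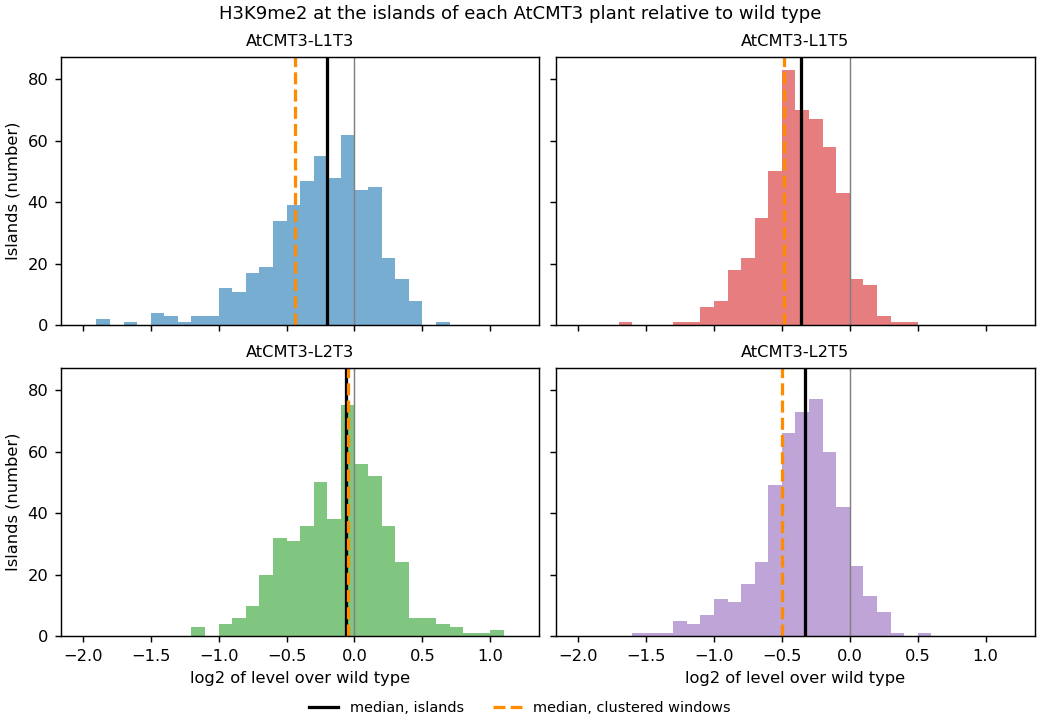
Number of islands (vertical axis) by log2 ratio of H3K9me2 level to wild type (horizontal axis) in the 4 AtCMT3 plants, with the medians of islands and clustered windows as lines. The island median lies at -0.20 in AtCMT3-L1T3, -0.06 in AtCMT3-L2T3, -0.36 in AtCMT3-L1T5 and -0.33 in AtCMT3-L2T5, to the right of the clustered windows except in AtCMT3-L2T3.

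Clustered windows had lower ratios to wild type than islands in 3 plants, at 0.668 in AtCMT3-L2T5, 0.691 in AtCMT3-L1T5 and 0.710 in AtCMT3-L1T3, and a higher ratio in AtCMT3-L2T3, at 0.968. Clustered windows also had more wild-type reads. In both sets the ratio was lower where wild-type reads were higher, except at islands above 120 reads in AtCMT3-L2T3. Wild-type reads divide the ratio and were used by the rule, so this fall is a description. The sets were compared within classes of wild-type reads, also as a description. They were not matched in input, which was higher at islands in each class. Input was at 2.40 for islands and 2.24 for clustered windows with 51 to 60 reads. Above 120 reads it was at 4.74 and 2.61. Among windows with 51 to 60 wild-type reads, which included 204 islands, the island and clustered ratios were 0.948 (0.929 to 0.969) and 0.921 for AtCMT3-L1T3, 0.831 (0.813 to 0.850) and 0.827 for AtCMT3-L1T5, and 0.867 (0.849 to 0.885) and 0.856 for AtCMT3-L2T5. In AtCMT3-L2T3 they were 1.00 (0.977 to 1.02) and 1.05. Among windows with 61 to 80 reads, which also included 204 islands, they were 0.860 and 0.833, 0.772 and 0.771, and 0.777 and 0.776 in the same 3 plants, and 0.937 and 1.01 in AtCMT3-L2T3. In these classes the intervals of both sets overlapped in AtCMT3-L1T5 and AtCMT3-L2T5, the islands were slightly the higher set in AtCMT3-L1T3 and the lower set in AtCMT3-L2T3. At 81 to 120 reads, with 74 islands, the pairs were 0.713 and 0.674, 0.717 and 0.676, and 0.678 and 0.639 in AtCMT3-L1T3, AtCMT3-L1T5 and AtCMT3-L2T5, and 0.863 and 0.952 in AtCMT3-L2T3. The sets lay furthest apart above 120 wild-type reads, with 14 islands and 1474 clustered windows, except in AtCMT3-L2T3. The pairs there were 0.663 (0.630 to 0.698) and 0.508 in AtCMT3-L1T3, 0.645 (0.611 to 0.682) and 0.546 in AtCMT3-L1T5, 0.584 (0.555 to 0.615) and 0.487 in AtCMT3-L2T5, and 0.870 and 0.904 in AtCMT3-L2T3.

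The 48 islands with no other window at 2-fold within 10 kb, the most isolated of all, had the lower ratios to wild type. Their ratios were 0.678 (0.652 to 0.706) in AtCMT3-L1T3, 0.761 (0.728 to 0.795) in AtCMT3-L2T3, 0.746 (0.716 to 0.778) in AtCMT3-L1T5 and 0.662 (0.637 to 0.688) in AtCMT3-L2T5. The other 448 islands had ratios of 0.867, 0.959, 0.776 and 0.787. The difference was also there when 52 such islands were chosen in the first part of the wild-type reads and measured in the other part. They had ratios of 0.719 (0.683 to 0.757), 0.791 (0.749 to 0.835), 0.786 (0.746 to 0.829) and 0.691 (0.657 to 0.727), compared with 0.927, 1.02, 0.830 and 0.855 at the remaining 465. For AtCMT3-L1T5 the gap was the smallest, and the intervals of both sets there, 0.746 to 0.829 and 0.815 to 0.846, overlapped. The adjoining kilobase of the 48 islands was at 5.23 in wild type and 4.34 to 5.13 in the AtCMT3 plants, near its input level of 5.42.

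The rule that called windows in wild type was next applied to the AtCMT3 libraries. By the rule as given, it was met at 349 islands in AtCMT3-L1T3 (70.4%), 379 in AtCMT3-L2T3 (76.4%), 265 in AtCMT3-L1T5 (53.4%) and 282 in AtCMT3-L2T5 (56.9%). The background among all windows was 10.2%, 11.1%, 7.8% and 8.82%. Among all windows enriched in wild type it was 81.3%, 89%, 72.3% and 76.8%, and the island shares lay below these in each plant. All calls share the wild-type input. With 6-fold over input in the rule, 52.3%, 77.1%, 42.4% and 43.3% of 665 islands were called in the order of the plants. With libraries scaled to the reads outside the windows enriched in wild type, 446, 471, 406 and 414 of the 496 islands were called. The 496 islands stayed those chosen with library-size scaling, while fold over input was rescaled. The share of all windows called is not given for these alternatives, so their counts have no background and are not a result about islands. By number of plants, 206 islands were called in all 4, 75 in 3, 71 in 2, 84 in 1 and 60 in none. Shares of all windows by number of plants are not given, so these counts have no background either.

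**Figure D5:**
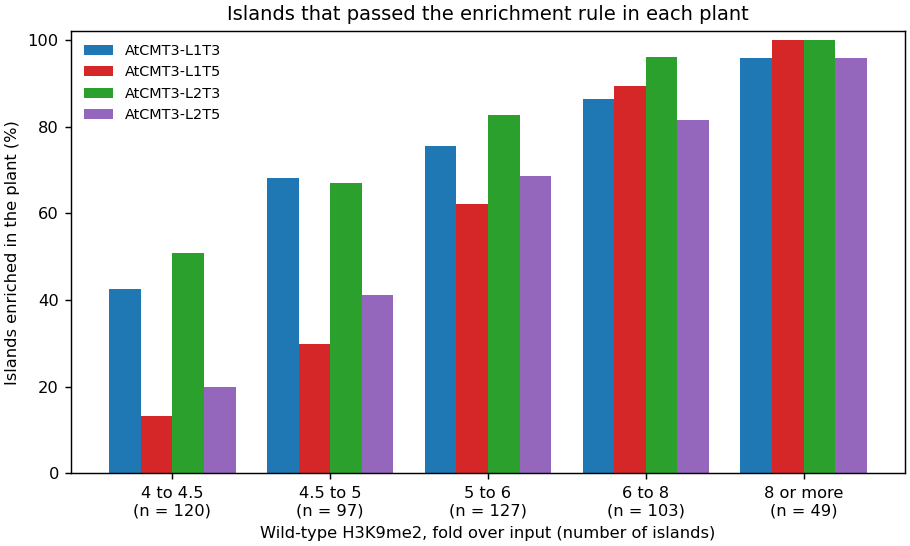
Percentage of islands called enriched in each AtCMT3 plant (vertical axis) by the fold of wild-type H3K9me2 over input (horizontal axis, with the number of islands in each class). The bars rise from 13.3% to 50.8% at 4 to 4.5-fold to between 95.9% and 100% at 8-fold or more.

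The calls are given next by wild-type fold over input. This is a description, since calls and fold divide by the same input reads and the wild-type fold chose the islands. Of the 120 islands at 4 to 4.5-fold in wild type, 42.5% were called in AtCMT3-L1T3, 50.8% in AtCMT3-L2T3, 13.3% in AtCMT3-L1T5 and 20% in AtCMT3-L2T5. Of the 49 islands at 8-fold or more, 95.9% were called in AtCMT3-L1T3 and AtCMT3-L2T5, and 100% in the other plants. The 206 islands called in all plants had a median wild-type fold of 6.23, and the 60 called in none had a median of 4.33, close to the threshold of 4. The median wild-type reads of these sets were 63 and 67. At the 120 islands nearest to the threshold the median log2 ratio to wild type was -0.15 in AtCMT3-L1T3, -0.05 in AtCMT3-L2T3, -0.29 in AtCMT3-L1T5 and -0.28 in AtCMT3-L2T5. The median fold over input at the islands was 4.66 in AtCMT3-L1T3, 5.04 in AtCMT3-L2T3, 4.11 in AtCMT3-L1T5 and 4.22 in AtCMT3-L2T5.

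New enriched windows around the islands were few. The windows within 10 kb of an island, 9775 in all, were not enriched in wild type by the rule. The rule called 410 of them (4.19%) in AtCMT3-L1T3, 404 (4.13%) in AtCMT3-L2T3, 138 (1.41%) in AtCMT3-L1T5 and 208 (2.13%) in AtCMT3-L2T5. The background among all windows not enriched in wild type was 3.42%, 3.61%, 1.61% and 2.3%, so the flanks as a whole were near it. Windows next to an island held larger shares of calls. Of the 992 adjacent windows, 103 (10.4%) were called in AtCMT3-L1T3, 105 (10.6%) in AtCMT3-L2T3, 29 (2.92%) in AtCMT3-L1T5 and 41 (4.13%) in AtCMT3-L2T5. At 163, 206, 208 and 190 islands, respectively, the island was called and still had no other called window within 10 kb in the same plant. No share over all windows is given for these counts, so they are a description.

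Comparisons between AtCMT3 plants do not involve the wild-type level that chose the islands. AtCMT3-L1T5 was at 0.912 times AtCMT3-L1T3 (0.903 to 0.921), and AtCMT3-L2T5 was at 0.825 times AtCMT3-L2T3 (0.817 to 0.834). AtCMT3-L2T3 was at 1.11 times AtCMT3-L1T3 (1.1 to 1.12), and AtCMT3-L2T5 was at 1.00 times AtCMT3-L1T5 (0.993 to 1.01). These are differences between single plants, and the spread among plants of a lineage or generation is not known from them. The T5 plants shared a sequencing run, and the T3 plants did not. Over clustered windows the 4 ratios were 0.973, 0.690, 1.36 and 0.967. The gap was smaller at islands than at clustered windows between the L2 plants, between the T3 plants and between the T5 plants. Between the L1 plants the gap was larger at islands, at 0.912 compared with 0.973. Each of these ratios involves a plant that another of them also uses.

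Few of the 496 islands changed by 2-fold or more between AtCMT3 plants. AtCMT3-L1T5 was lower than AtCMT3-L1T3 by that much at 2 islands and higher at 1, against backgrounds of 0.382% and 0.319% among windows enriched in wild type. AtCMT3-L2T5 was lower than AtCMT3-L2T3 at 10 islands and higher at 0, against 5.67% and 0.0677%. AtCMT3-L2T3 was higher than AtCMT3-L1T3 at 15 islands and lower at 0, against 6.41% and 0.164%. Between AtCMT3-L2T5 and AtCMT3-L1T5 no island differed by 2-fold, with 0 lower and 0 higher, against 0.0532% and 0.121%. Between the L1 plants and between the T5 plants the counts were thus near the background, and they are not a result about islands. The 10 islands between the L2 plants and the 15 between the T3 plants were smaller shares of the 496 than their backgrounds of 5.67% and 6.41%. For the 3 other comparisons the standard deviation of the log2 ratio over islands was between 0.32 and 0.39, and for the T5 plants it was 0.25, where counting gives 0.16.

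AtCMT3-L1T3 allowed a check of the sequencing run. Reads from the run shared with wild type gave a ratio to wild type of 0.848 (0.836 to 0.860) and 350 islands called, and reads from the other run gave 0.847 (0.835 to 0.859) and 349. The log2 ratio between both runs had a standard deviation of 0.23 over islands, close to the 0.21 of counting error. The island ratio to wild type in AtCMT3-L1T3 was therefore the same within the run of wild type. Both sets of reads come from the same plant's ChIP sample, so differences between libraries and the run of the T5 plants are not covered.

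The 6 islands with the most wild-type reads differed in which plants lay below wild type. They were chosen for a wild-type count that also divides each ratio, so their values are a description. The strongest island, on scaffold 5 at 8021001 to 8022000, had levels of 45.6 in wild type, 26.6 in AtCMT3-L1T3, 34.4 in AtCMT3-L2T3, 30.0 in AtCMT3-L1T5, 25.7 in AtCMT3-L2T5 and 3.77 in input. All AtCMT3 plants lay below wild type there, with ratios from 0.564 (0.478 to 0.668) in AtCMT3-L2T5 to 0.755 (0.627 to 0.910) in AtCMT3-L2T3. The island stood in sparsely marked surroundings, 48 kb from the nearest enriched window, with 2.24% of windows enriched between 10 and 500 kb. It remained enriched in every plant.

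At 3 further strong islands AtCMT3-L2T3 matched wild type while the other plants were lower. The island on scaffold 6 at 5794001 to 5795000 had levels of 40.1 in wild type, 21.6 in AtCMT3-L1T3, 39.3 in AtCMT3-L2T3, 22.3 in AtCMT3-L1T5, 20.1 in AtCMT3-L2T5 and 5.15 in input. Wild type and AtCMT3-L2T3 were nearly alike (ratio 0.982, 0.814 to 1.19), whereas AtCMT3-L2T5 was at 0.501 (0.419 to 0.602) and fell just short of the enrichment rule at 3.90-fold over input. The island on scaffold 8 at 8800001 to 8801000 had levels of 35.6 in wild type, 18.0 in AtCMT3-L1T3, 35.1 in AtCMT3-L2T3, 24.4 in AtCMT3-L1T5, 18.1 in AtCMT3-L2T5 and 5.15 in input. The island on scaffold 2 at 16294001 to 16295000 had levels of 38.9 in wild type, 25.2 in AtCMT3-L1T3, 40.4 in AtCMT3-L2T3, 31.2 in AtCMT3-L1T5, 27.9 in AtCMT3-L2T5 and 4.78 in input. At each of these, AtCMT3-L1T3 and AtCMT3-L2T5 were the 2 lowest, and the order of the plants was not that of their generations.

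The remaining strong islands, both on scaffold 7, had high input, and AtCMT3-L1T3 was not below wild type there. At 2351001 to 2352000 the levels were 38.5 in wild type, 43.9 in AtCMT3-L1T3, 39.6 in AtCMT3-L2T3, 26.2 in AtCMT3-L1T5, 31.1 in AtCMT3-L2T5 and 8.92 in input, the highest input level of any island. The width between flank and summit in the AtCMT3 libraries was 7100 bp there, also the widest of all. Both T5 plants were below the others. At 5523001 to 5524000 the levels were 35.2 in wild type, 37.5 in AtCMT3-L1T3, 33.0 in AtCMT3-L2T3, 26.8 in AtCMT3-L1T5, 31.1 in AtCMT3-L2T5 and 7.90 in input. Both were called in AtCMT3-L1T3 and AtCMT3-L2T3 and in neither T5 plant, with wild-type folds of 4.32 and 4.45 that left little room above the threshold.

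The 4 islands with the lowest mean level in AtCMT3 plants relative to wild type were chosen for that, so their values are a description. The lowest, on scaffold 5 at 8111001 to 8112000, had levels of 15.6 in wild type, 4.29 in AtCMT3-L1T3, 6.83 in AtCMT3-L2T3, 8.28 in AtCMT3-L1T5, 5.88 in AtCMT3-L2T5 and 2.76 in input. It was well below wild type in every plant, at 0.276 times (0.194 to 0.392) in AtCMT3-L1T3 and 0.532 times (0.384 to 0.738) in AtCMT3-L1T5, and met the rule in none. It is 79 kb from the nearest other island and lies on the same scaffold as the strongest island. The width between flank and summit was 500 bp.

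A further island of this kind stayed enriched in every plant. On scaffold 7 at 9567001 to 9568000 the levels were 31.4 in wild type, 14.4 in AtCMT3-L1T3, 23.7 in AtCMT3-L2T3, 10.2 in AtCMT3-L1T5, 12.1 in AtCMT3-L2T5 and 1.1 in input. With so little input, 12 reads in all, even the lowest plant was at 9.28-fold over input. On scaffold 4 at 10505001 to 10506000 the levels were 22.0 in wild type, 8.13 in AtCMT3-L1T3, 15.0 in AtCMT3-L2T3, 12.5 in AtCMT3-L1T5, 9.51 in AtCMT3-L2T5 and 2.39 in input. On scaffold 13 at 2100001 to 2101000 they were 20.2 in wild type, 5.73 in AtCMT3-L1T3, 17.3 in AtCMT3-L2T3, 10.7 in AtCMT3-L1T5, 8.39 in AtCMT3-L2T5 and 2.94 in input. In all 3, AtCMT3-L2T3 had the highest level of the AtCMT3 plants, and the widths between flank and summit were 1200, 900 and 700 bp.

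Islands with the highest mean level relative to wild type, also chosen for it, had wild-type reads nearer to the threshold. On scaffold 1 at 12198001 to 12199000 the levels were 13.8 in wild type, 21.9 in AtCMT3-L1T3, 21.4 in AtCMT3-L2T3, 13.8 in AtCMT3-L1T5, 19.8 in AtCMT3-L2T5 and 2.11 in input. Here the ratio to wild type was 1.58 (1.21 to 2.11) in AtCMT3-L1T3, 1.55 (1.15 to 2.11) in AtCMT3-L2T3 and 1.44 (1.1 to 1.91) in AtCMT3-L2T5. AtCMT3-L1T5 was level with wild type. Such islands were chosen from 496 for high ratios that share the wild-type count, so their intervals are a description. The other 3 islands of this kind lay on scaffold 11 at 3416001 to 3417000, scaffold 16 at 6003001 to 6004000 and scaffold 4 at 2689001 to 2690000. Their wild-type reads were 51, 54 and 67. At each of these 3 the ratio was highest in AtCMT3-L2T3, at 1.42 (1.02 to 2.01), 1.63 (1.19 to 2.27) and 1.54 (1.16 to 2.07). All 4 islands were called in every plant.

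Of the 60 islands called in no plant, the 4 with the most wild-type reads were still marked above input. They were chosen by those calls and by wild-type reads, so their values are a description. The island on scaffold 8 at 1254001 to 1255000 had levels of 24.7 in wild type, 14.6 in AtCMT3-L1T3, 17.5 in AtCMT3-L2T3, 12.7 in AtCMT3-L1T5, 12.9 in AtCMT3-L2T5 and 5.79 in input. All plants were lower than wild type, at 2.20-fold to 3.03-fold over input. The island on scaffold 15 at 1476001 to 1477000 had levels of 22.3 in wild type, 18.6 in AtCMT3-L1T3, 19.2 in AtCMT3-L2T3, 14.7 in AtCMT3-L1T5, 15.3 in AtCMT3-L2T5 and 4.87 in input, and reached 3.94-fold over input in AtCMT3-L2T3. The island on scaffold 5 at 7269001 to 7270000 had ratios to wild type of 0.533 to 0.750. The fourth, on scaffold 6 at 2326001 to 2327000, was among the most remote, 263 kb from the nearest enriched window, and with 4.01-fold over input in wild type it had barely met the rule.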

How the data were processed

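Reads of the 6 ChIP-seq libraries had been trimmed, mapped by the authors to version 1.0 of the E. salsugineum genome with Bowtie, reduced to unique alignments and stripped of duplicates. The score that the authors deposited for each read is 255 throughout and was not used. Counts of reads per window were computed here from these deposited lines. Unique alignment leaves out reads from near-identical repeats, so levels over them are underestimated. The authors computed expression with StringTie and deposited it as FPKM. Of the 5 columns used for AtCMT3, 2 that the authors deposited under that name sum to 1000000, as TPM values do, and all 5 were scaled to TPM here. Bisulfite and H3K9me1 libraries were not used here.

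Ratio intervals are exact conditional 95% intervals. No p-value was computed, since each plant gave 1 library. The islands and comparisons were chosen with earlier results of these data known. Named islands are the 6 with the most wild-type reads, the 4 highest and 4 lowest in mean AtCMT3 level over wild type, and the first 4 by wild-type reads of those called in no plant. The steps were tested on simulated data. Computations ran in Python 3.11.15 with scipy 1.17.1, pandas 2.3.3 and numpy 2.4.6, and plots were made with matplotlib 3.10.9.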

Additional observations from a re-analysis of the deposited data

How the results depend on the processing

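No paired analysis was possible because each compared group is 1 ChIP-seq library, so that no groups share 2 replicate numbers. T3 and T5 plants can be paired by lineage, and these 2 pairs are given in the report as ratios, with no test. Of 54 values under alternatives, 26 stayed within set limits, 27 moved past them and 1 reversed. The limits were 1.5 times a reported count, or the 95% interval over islands of a reported median log2 ratio. That interval is not a counting interval, and it treats the islands of 1 library as units. In the order AtCMT3-L1T3, AtCMT3-L2T3, AtCMT3-L1T5, AtCMT3-L2T5, the median log2 ratios to wild type were -0.20, -0.06, -0.36 and -0.33. With 2-fold over input for an enriched window, 95 islands remained by the rule, 48 of them among the 496, with ratios of -0.37, -0.29, -0.33 and -0.45 and 80, 86, 80 and 78 islands called. With 6-fold there were 665 islands, and the ratios of AtCMT3-L1T3, AtCMT3-L1T5 and AtCMT3-L2T5 moved to -0.33, -0.41 and -0.40, and 348, 513, 282 and 288 islands were called, 42.4% to 77.1% of them. With no other enriched window within 20 kb there were 214 islands. The ratios of AtCMT3-L1T3, AtCMT3-L2T3 and AtCMT3-L2T5 were then -0.27, -0.16 and -0.38, and 146, 157, 119 and 118 islands were called, 55.1% to 73.4% of them. With islands chosen in part of the wild-type reads and measured in the rest, the ratios were -0.11, 0.0065, -0.27 and -0.23, so that AtCMT3-L2T3 reversed, to a value near 0. Its construction removes the reads that chose the islands from the measured level. Scaled to reads outside the windows enriched in wild type, the ratios of AtCMT3-L1T3, AtCMT3-L1T5 and AtCMT3-L2T5 were -0.33, -0.50 and -0.47, and 446, 471, 406 and 414 islands were called, compared with 349, 379, 265 and 282 as reported. The share of all windows called in the AtCMT3 plants is not given under the alternatives, so these calls have no background. The cause of the other moves was not tested. Shifting windows by 500 bp, thinning each library to the wild-type depth, and using only the AtCMT3-L1T3 reads of the run shared with wild type, an alternative chosen after seeing the data, moved no value by more than these limits. The wild-type library, with the fewest reads, limits the precision of each island's ratio, and 1 input library underlies all folds.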
